A study of Mus musculus with 8 samples.

Results

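Alveolar macrophages live in the air spaces of the lung, and 31 genes that mark their identity are described here. They were chosen by name from the deposited count table, which held 48709 genes, and all 31 names were found. The cells were primary mouse alveolar macrophages of 2 genotypes. The 4 Batf2-/- libraries lacked a working gene for BATF2, an AP-1 family factor that binds DNA, and the 4 WT libraries came from C57BL/6J mice. All cells of both genotypes received IFNg at 10 ng/mL for 4 h and then K. pneumoniae supernatant at 20% for 6 h, to bring about an M1-like state, so no untreated cells were compared. Each library pooled the cells of 4 mice, and the sources used here do not say how the Batf2 allele was made or how old the mice were. The p-values below therefore measure the spread between pools.

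Alveolar macrophages develop when GM-CSF and TGF-beta act on fetal monocytes and switch on the nuclear receptor PPARG. PPARG directs a programme for taking up, binding and storing the lipids of surfactant, which these cells clear from the alveoli. The transcription factors C/EBP beta, BHLHE40 and BHLHE41 are also needed for their identity in mice, and the cells are known for surface CD11c and for a set of ribonucleases and proteases that other macrophages lack or express weakly.

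Total counts per library ranged from 31730041 to 39888022. No Batf2-/- library had any Batf2 count, against 189, 178, 168 and 138 CPM in WT libraries 1 to 4. CPM are counts made comparable between libraries by their totals and TMM factors, and a library's number is the order of its column in the table (5 to 8 Batf2-/-, 1 to 4 WT). On the first principal component, which held 42.5% of the variance, library 8 (Batf2-/-) and library 4 (WT) lay at the same end of their genotypes. Library 4 stood apart at 43.9, against -16.7 to 4.72 for the other WT libraries. Library 8, at 28.9, was the end of a spread from -34.95 across the Batf2-/- libraries, with library 7 at -1.85. Fold changes without libraries 8 and 4 are given below for the members in which they were both lowest or both highest. Libraries at the same position under their genotype headings also deviated together, with correlations across genes of 0.272 to 0.759, so calls that a block on position changes are given too, although the labels give no such pairing. Siglecf, which with CD11c defines alveolar macrophages, averaged 64.9 ± 10.1 CPM in Batf2-/- and 77.7 ± 6.04 CPM in WT (SD, n = 4 each). Markers of eosinophils and mast cells summed to 0 to 0.0978 CPM in Batf2-/- and to 0 CPM in every WT library, with Prg2, Epx, Il5ra, Mcpt4 and Cma1 at 0 counts in all 8 libraries. Those of T, NK and B cells summed to 0.524 to 3.21 CPM in Batf2-/- and 0.399 to 0.616 CPM in WT, with Ncr1 at 0. Those of alveolar epithelium summed to 10.3 to 18.9 CPM in Batf2-/- and 12.7 to 18.4 CPM in WT, and most of that was Epcam. Sftpc, the surfactant gene that defines type II cells, was at 0.0995 ± 0.0765 CPM in Batf2-/- and 0.219 ± 0.225 CPM in WT (SD, n = 4 each). Markers of interstitial and monocyte-derived macrophages summed to 179.9 to 366 CPM in Batf2-/- and 109 to 202 CPM in WT. Most of that sum was Fn1 and Csf1r, and Lyve1 and Cd163 had 0 counts throughout. Neutrophil markers summed to 24.6 to 49.7 CPM in Batf2-/- and 17.2 to 31.5 CPM in WT, with Ly6g and Retnlg at 0. Most of that sum was S100a8, at 29.2 ± 11.8 CPM in Batf2-/- and 19.2 ± 6.98 CPM in WT. S100a9 averaged 0.0069 CPM in each genotype. Dendritic cell markers summed to 4.31 to 5.95 CPM in Batf2-/- and 5.85 to 7.63 CPM in WT, with Cd209a and Siglech at 0, and Clec9a fell to 0.253 ± 0.0717 CPM in Batf2-/-, against 2.45 ± 0.130 CPM in WT (edgeR adjusted p = 1.20e-04). Zbtb46 of the same list was at 1.92 ± 0.348 CPM in Batf2-/- and 0.937 ± 0.263 CPM in WT, without overlap. Its adjusted p was 0.0965 by edgeR, and DESeq2 and the fit with the position block (0.0121) called it higher. No marker of the epithelial, neutrophil, or interstitial and monocyte-derived lists passed by edgeR, DESeq2 or limma-voom, with 1, 0 and 1 at an unadjusted p under 0.05 by edgeR in that order. With the position block Csf1r (edgeR adjusted p = 0.0124) and the neutrophil marker S100a8 (6.30e-04) were called higher. The part of these cells in the results below was not tested.

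Many of the identity genes were expressed strongly in both genotypes. Together the 31 held 2.42% to 2.80% of the scaled counts of a Batf2-/- library and 2.43% to 2.79% of those of a WT library. Most of these counts fell on Ctsk, Gpnmb, Cd9 and Lpl. Per kb of exon length, 15 of the 31 lay at or above the 90th percentile of tested genes, 10 lay between the 50th and the 90th percentile and 6 lay below. Of those 6, Ear10 had no counts at all. Levels of different genes are compared on this per-length scale alone. The highest was Ctsk, the gene for cathepsin K, a protease that cuts collagen, at 6165 ± 1109.9 CPM per kb in Batf2-/- and 5724 ± 1146 CPM per kb in WT (SD, n = 4 each), which ranked 4 among all tested genes. Cd9, a tetraspanin of the plasma membrane, came next at 1683 ± 445 CPM per kb in Batf2-/- and 1744 ± 494 CPM per kb in WT. Spp1 (osteopontin) and Gpnmb, a membrane glycoprotein, followed with overall means of 831 and 712 CPM per kb. The ranges of these 2 genes across libraries overlapped, so their order is not settled. The order also depends on the length taken. With the longest transcript as length, Gpnmb (1253 CPM per kb) lay above Spp1 (909), and Lpl moved from rank 9 to rank 5 among the 31. Ctsk and Cd9 kept ranks 1 and 2.

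**Figure D1:**
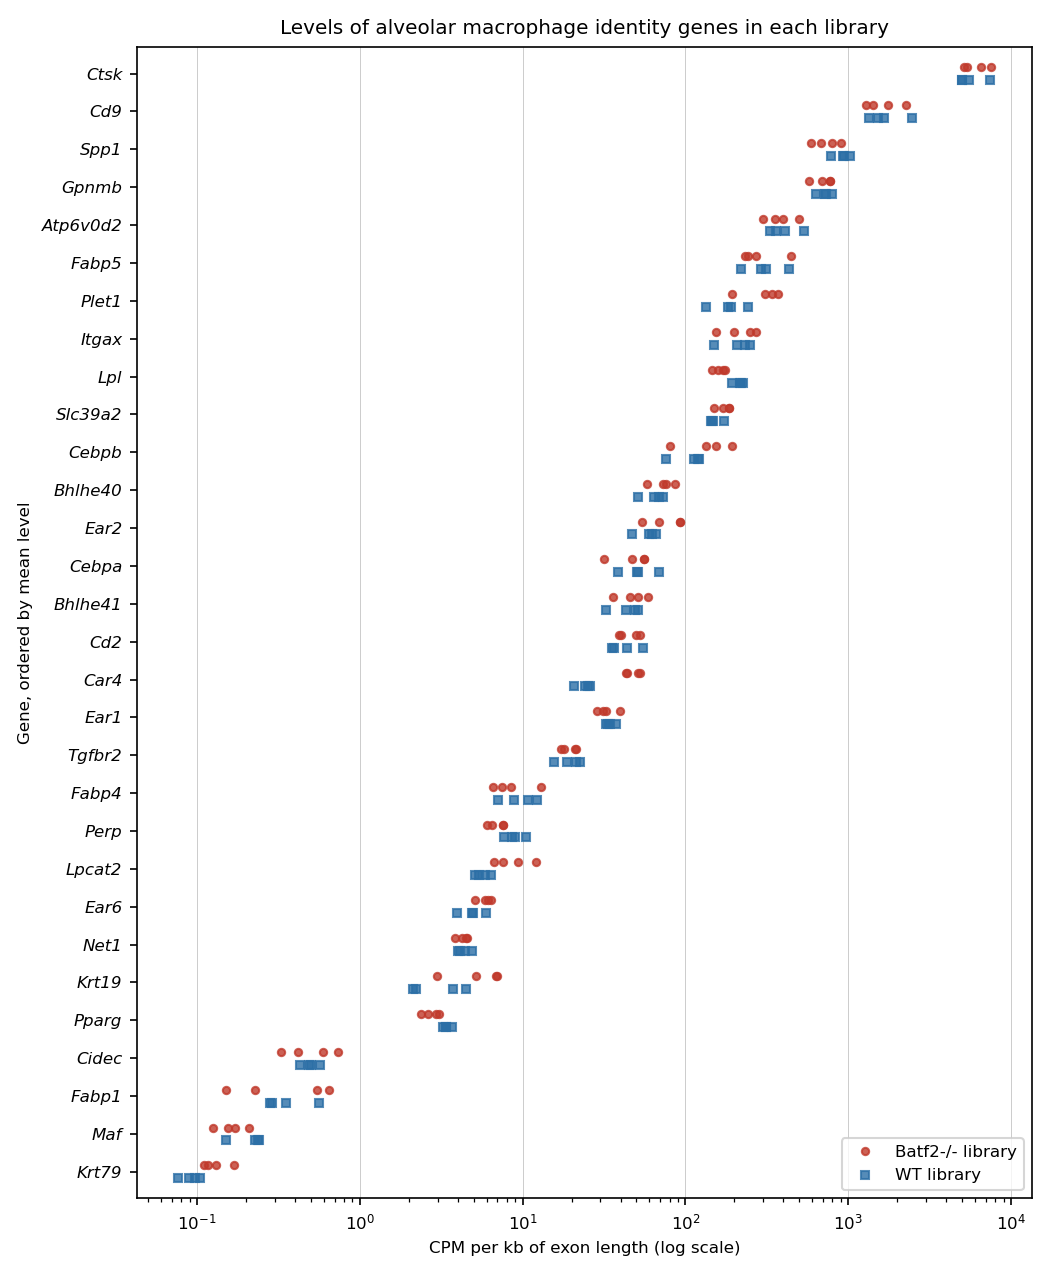
Level of each identity gene with any count in each of the 4 Batf2-/- libraries (red circles) and the 4 WT libraries (blue squares), as CPM per kb of exon length on a log scale, with genes ordered by mean level. Levels run from Ctsk at a mean of 5945 CPM per kb down to Krt79 at a mean of 0.111, and in most rows the genotypes overlap.

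The middle and lower end of the order held genes that are textbook marks of the cell type. Pparg itself stood at the 45th percentile of tested genes, at 2.75 ± 0.313 CPM per kb in Batf2-/- and 3.41 ± 0.182 CPM per kb in WT (SD, n = 4 each). Fabp4, a lipid carrier that is a known PPARG target, stood at 8.85 ± 2.81 CPM per kb in Batf2-/- and 9.73 ± 2.26 CPM per kb in WT. That was percentile 67.9 of tested genes. Its neighbour on chromosome 3, Fabp5, stood far higher, at 297 ± 99.3 and 314 ± 89.6 CPM per kb in the same order of genotypes. The exon length of Fabp4, 4489 bases, covers the whole gene from 10204088 to 10208576. Its level per kb therefore depends on the length taken, and a shorter transcript would give a higher level. Cidec, Fabp1, Maf and Krt79 had means between 0.111 and 0.508 CPM per kb. Low Maf is a known feature of alveolar macrophages in mice. No untreated cells were measured, so whether the stimulus set any of these levels was not tested.

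Between genotypes, 1 of the 29 members that passed the filter on low counts was called. Car4 rose in Batf2-/- macrophages and the other 28 did not pass (edgeR quasi-likelihood test without a block, adjusted p over 11083 genes). Across all tested genes 1.11% were called in either direction and 0.55% were called higher. With the position block 7 of the 29 were called, beside 12.5% of all tested genes. The median log2 fold change of the 29 was 0.06, beside -0.01 over all tested genes, and 15 of the 29 (51.7%) lay above 0, beside 46% of all tested genes. Fabp1 and Ear10 did not pass the filter and were not tested. Besides Car4, an unadjusted p under 0.05 was found for Plet1, Lpcat2, Lpl, Pparg, Perp and Krt19, which made 7 members (24.1%, beside 8.5% of all tested genes). The members were chosen with earlier results of these data known, so their shares are descriptions and not tests. In 3 members the 4 Batf2-/- libraries all lay above the 4 WT libraries (Car4, Lpcat2 and Krt79), beside 3.03% of tested genes. In 3 they all lay below (Lpl, Perp and Pparg), beside 3.29% of tested genes. Both directions together made 20.7% of the 29 members.

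**Figure D2:**
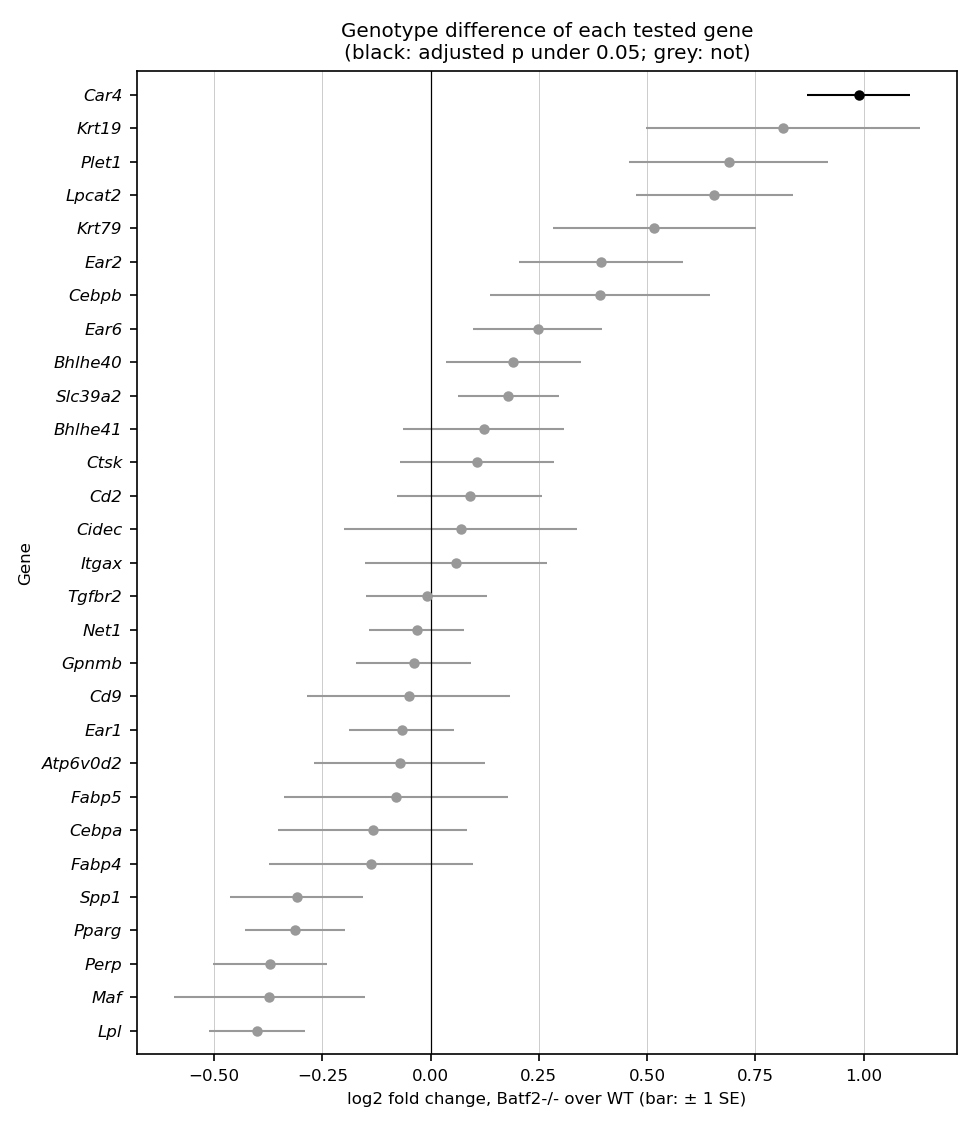
Log2 fold change of Batf2-/- over WT for the 29 tested identity genes, with bars of 1 SE from the edgeR fit. Car4, at 0.99 ± 0.12, is the one gene drawn in black for an adjusted p under 0.05, and the others run from 0.81 for Krt19 to -0.40 for Lpl.

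Car4 encodes carbonic anhydrase IV, which sits on the outer membrane through a lipid anchor and interconverts carbon dioxide and bicarbonate. It stood at 100.1, 84.7, 103 and 85.6 CPM in Batf2-/- libraries 5 to 8, against 40.6, 47.3, 49.7 and 50.7 CPM in WT libraries 1 to 4. The groups were far apart, with the lowest Batf2-/- library well above the highest WT library. The mean was 93.4 ± 9.60 CPM in Batf2-/- and 47.1 ± 4.55 CPM in WT (SD, n = 4 each), a rise of 1.98-fold (log2 fold change 0.99 ± 0.12 SE, edgeR adjusted p = 0.00501). Car4 was called with each library left out in turn, with edgeR adjusted p between 0.00724 and 0.0321, and without libraries 4 and 8 together (0.00269). Over all its 19 alternatives the adjusted p ran from 8.4e-13 to 0.156, and the highest came from a test against a 1.5-fold change, in which Car4 was not called, nor any other member (0.262% of all tested genes were).

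Car4 (ENSMUSG00000000805) lies on chromosome 11 of GRCm38 (84957786 to 84966044, plus strand), and none of the 50-base windows of its transcripts occurs in a transcript of another gene. Within 2 Mb of it, 3 of 49 other tested genes were called (6.12%), beside 1.11% of all tested genes. They were Ccl4, Slfn10-ps and AA465934, all higher in Batf2-/-. Ccl4, a chemokine gene that starts at 83662584, rose to 99.3 ± 22.1 CPM, against 35.1 ± 3.76 CPM in WT (SD, n = 4 each, edgeR adjusted p = 0.00445). Slfn10-ps, a Schlafen pseudogene, stood at 3.44 ± 1.06 CPM in Batf2-/- and 1.43 ± 0.200 CPM in WT (edgeR adjusted p = 0.0375). AA465934 was low in both genotypes, at 0.454 ± 0.105 and 0.0203 ± 0.0264 CPM in the same order (edgeR adjusted p = 0.00929). On the whole of chromosome 11, 23 of 933 tested genes were called (2.47%). The part of this region in the Car4 difference was not tested. In the lung Car4 is also known from capillary endothelium. The markers of endothelium and stroma summed to 2.38 to 7.08 CPM in Batf2-/- and 1.24 to 2.11 CPM in WT, ranges that did not overlap. Of that list Pdgfrb, a receptor of pericytes and fibroblasts, rose to 2.00 ± 0.548 CPM, against 0.708 ± 0.205 CPM in WT (edgeR adjusted p = 0.0376). Cdh5, the endothelial cadherin, ranged over 0.522 to 3.24 CPM in Batf2-/- and 0.124 to 0.462 CPM in WT (edgeR adjusted p = 0.112, with 4 libraries each). The groups did not overlap, and Cdh5 was called higher by DESeq2, by limma-voom with quality weights and with the position block (edgeR adjusted p = 1.68e-04). Pecam1 (0.260 CPM in Batf2-/- and 0.145 CPM in WT, not tested) and Pdgfra (0.425 and 0.216 CPM) were also higher without overlap. Pdgfra had an edgeR adjusted p of 0.311 and was called by limma-voom with quality weights. Kdr overlapped, at 0.271 and 0.251 CPM in the same order. Tek, Col1a1, Col1a2 and Col3a1 averaged 0, 0, 0.0062 and 0 CPM in Batf2-/-, against 0.0077, 0.0139, 0.0066 and 0.0069 CPM in WT. The part of endothelial and stromal RNA in the Car4 result was not tested. In bulk RNA, fewer cells of a type and less RNA per cell cannot be told apart.

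The promoters of Car4 and Plet1 are shown because these are members with large fold changes that have a promoter in the RefSeq table of GRCm38.p6, and because BATF2 belongs to the AP-1 family. Each runs from 250 bases before to 50 after RefSeq's start of the gene on the plus strand, which for Car4 lies upstream of the GENCODE start given above, Car4 at chr11:84957504-84957803 and Plet1 at chr9:50494275-50494574. Capitals mark the AP-1 letters TGANTCA, searched on both strands.
Car4: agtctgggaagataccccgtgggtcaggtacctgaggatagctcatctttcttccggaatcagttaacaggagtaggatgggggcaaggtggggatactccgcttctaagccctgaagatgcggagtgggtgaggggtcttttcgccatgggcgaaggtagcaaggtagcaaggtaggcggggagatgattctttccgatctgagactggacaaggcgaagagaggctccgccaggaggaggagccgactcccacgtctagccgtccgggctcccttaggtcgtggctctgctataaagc
Plet1: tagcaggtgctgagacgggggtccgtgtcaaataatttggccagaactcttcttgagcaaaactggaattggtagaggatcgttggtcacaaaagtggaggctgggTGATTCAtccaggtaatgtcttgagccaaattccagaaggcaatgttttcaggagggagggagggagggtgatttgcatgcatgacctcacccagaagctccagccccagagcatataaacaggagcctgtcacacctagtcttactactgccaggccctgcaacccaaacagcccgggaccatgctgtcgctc
The window of Plet1 held 1 match and that of Car4 held none. That of Lpcat2, a member with a log2 fold change of 0.65 whose window is not shown, also held none. Promoters were found for 22 of the 31 members, 27 windows in all, and 4 of the 27 held the AP-1 letters (14.8%), those of Plet1, Gpnmb, Itgax and Cidec, beside 7.81% of 32851 promoters. The letters TTGCNNAA, bound by C/EBP factors, stood in 11 of the 27 (40.7%), beside 10.8% of all promoters. Of those 11 windows, 3 belong to the ribonuclease genes Ear1, Ear2 and Ear10, which are copies of one another. Another 4 motifs were searched on both strands. The IRF motif (GAAA, 2 free bases, GAAA) stood in 1 window (3.70% against 3.44% of all promoters), the NF-kB motif (GGGA, 4 free bases, CC) in 6, that of Car4 among them (22.2% against 20.7%), GAGGAA (PU.1) in 6 (22.2% against 28.3%) and the PPAR motif (AGGTCA, 1 free base, AGGTCA) in 0 (against 0.04%). A match of letters is a description of the window and not a binding site.

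Among the other surface proteins none passed the test. Plet1, a lipid-anchored protein of epithelial progenitors and alveolar macrophages, stood at 719, 596, 662 and 377 CPM in Batf2-/- libraries 5 to 8, against 472, 357, 372 and 260.3 CPM in WT libraries 1 to 4. Libraries 8 and 4 were the lowest of their genotypes, and library 8 lay under WT library 1, so the groups overlapped. The log2 fold change was 0.69 ± 0.23 SE (edgeR adjusted p = 0.322). Without libraries 4 and 8 it was 0.73 and Plet1 passed (edgeR adjusted p = 0.0261), in a fit that called 2 members and 1.85% of all tested genes. Over its alternatives the lowest adjusted p was 3.28e-05 (edgeR with the position block). The highest was 1, from the test against 1.5-fold, and otherwise 0.654 (edgeR with a library left out).

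Itgax encodes CD11c, the integrin chain by which these cells are sorted. It stood at 1306, 1199, 954 and 741 CPM in Batf2-/- libraries 5 to 8 and 1118, 1200.2, 992 and 724 CPM in WT libraries 1 to 4, with near-complete overlap (log2 fold change 0.06 ± 0.21 SE, edgeR adjusted p = 1.00). Cd9 gave -0.05 ± 0.23, Gpnmb -0.04 ± 0.13, and Cd2, an adhesion receptor better known from T cells, 0.09 ± 0.17. Slc39a2, a zinc importer, averaged 595 ± 55.2 CPM in Batf2-/- and 526 ± 44.1 CPM in WT (SD, n = 4 each, adjusted p = 0.903). Perp, a membrane protein of desmosomes, stood at 12.7, 11.9, 14.9 and 14.7 CPM in Batf2-/- libraries 5 to 8, all below the 16.9, 15.0, 17.5 and 20.6 CPM of WT libraries 1 to 4. Its highest Batf2-/- value and lowest WT value were close, and it did not pass (log2 fold change -0.37 ± 0.13 SE, edgeR adjusted p = 0.384). With the position block it passed (edgeR adjusted p = 0.00632). Its highest value over the alternatives was 1, from the test against 1.5-fold, and otherwise 0.815 (edgeR with a library left out).

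**Figure D3:**
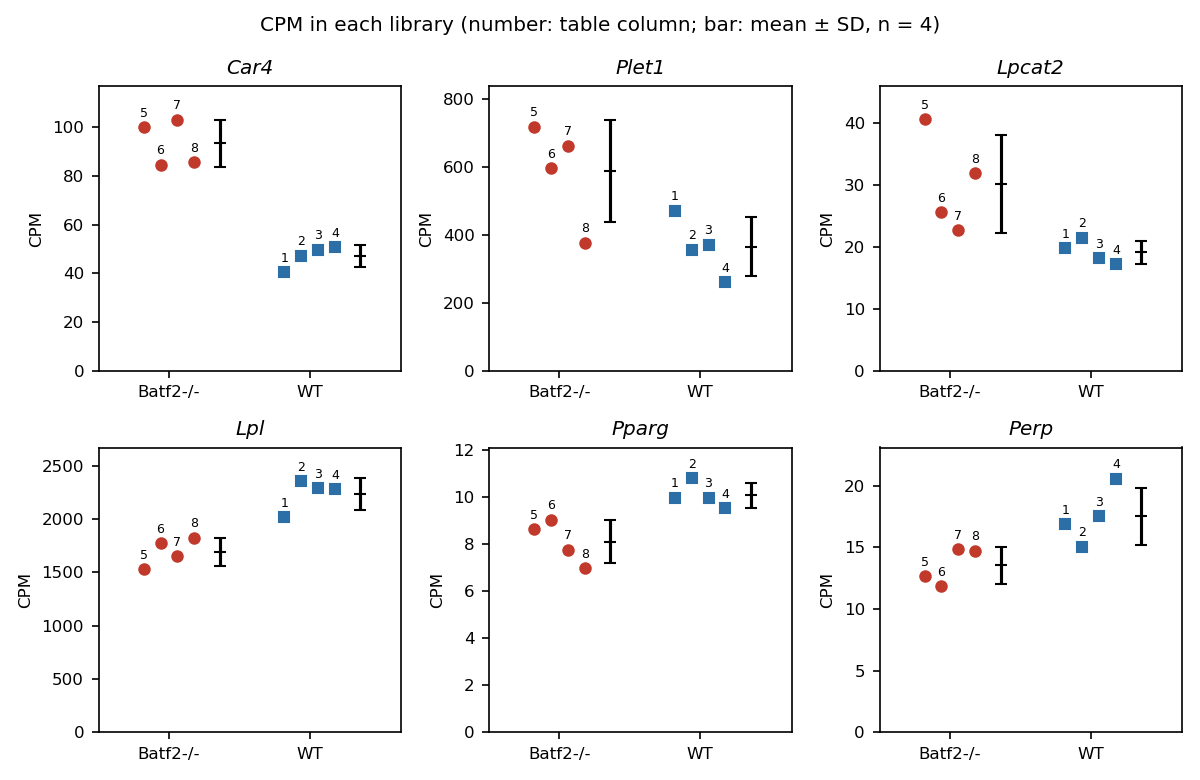
CPM of 6 of the identity genes whose groups do not overlap or whose fold change is large, in each Batf2-/- library (red circles) and each WT library (blue squares). Table column numbers are beside the points and the mean ± SD over n = 4 is at the side. Krt79, which also does not overlap, and Krt19, with a log2 fold change of 0.81, are not drawn. Car4 is separated widely, Lpcat2, Lpl, Pparg and Perp are separated narrowly, and Plet1 overlaps through library 8 at 377 CPM and library 1 at 472 CPM.

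The lipid-handling genes did not move together. Of 5 tested members 2 had a fold change above 0 and 3 below, and none passed. Lpl, the lipoprotein lipase that frees fatty acids from triglycerides, stood at 1529.8, 1774, 1651 and 1826 CPM in Batf2-/- libraries 5 to 8, against 2021, 2358, 2292 and 2279.6 CPM in WT libraries 1 to 4. Every Batf2-/- library was below every WT library, with library 8 the highest of the Batf2-/- libraries and library 4 inside the WT range. The log2 fold change was -0.40 ± 0.11 SE, and the edgeR adjusted p was 0.189. Over its alternatives the lowest was 1.75e-04 (edgeR with the position block). The highest was 1, from the test against 1.5-fold, and otherwise 0.595 (edgeR with a library left out). Lpcat2, which makes platelet-activating factor, stood at 40.7, 25.6, 22.7 and 31.9 CPM in Batf2-/- libraries 5 to 8, against 19.8, 21.5, 18.2 and 17.3 CPM in WT libraries 1 to 4. The groups were apart, but the Batf2-/- libraries were spread widely, with library 5 highest (log2 fold change 0.65 ± 0.18 SE, edgeR adjusted p = 0.189). Over the alternatives for Lpcat2 the lowest adjusted p was 0.0333 (DESeq2). The highest was 1, from the test against 1.5-fold, and otherwise 0.478 (edgeR with a library left out).

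The fatty acid binding proteins carry lipids inside the cell. Fabp5 stood at 825, 858, 974 and 1583 CPM in Batf2-/- libraries 5 to 8 and 778, 1045, 1110.1 and 1549 CPM in WT libraries 1 to 4. Libraries 8 and 4 were the highest of their genotypes, by far more than the group means differed (log2 fold change -0.08 ± 0.26 SE, edgeR adjusted p = 1.00). Fabp4 followed the same pattern at a lower level, with a log2 fold change of -0.14 ± 0.24. Fabp1, the liver form, had 5, 3, 12 and 11 counts in Batf2-/- libraries 5 to 8 and 6, 6, 7 and 10 counts in WT libraries 1 to 4, and was not tested. Cidec, a protein of lipid droplets, had 22 to 55 counts in a Batf2-/- library and 30 to 38 counts in a WT library (log2 fold change 0.07 ± 0.27 SE).

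None of the 6 transcription factors passed. Pparg, the master regulator of the programme, stood at 8.65, 9.05, 7.78 and 6.98 CPM in Batf2-/- libraries 5 to 8, all below the 9.99, 10.8, 9.99 and 9.54 CPM of WT libraries 1 to 4. The gap was narrow, 1.24-fold in the means of the fit (log2 fold change -0.31 ± 0.12 SE, edgeR adjusted p = 0.409). Over the alternatives for Pparg the lowest adjusted p was 0.0255 (edgeR with the position block). The highest was 1, from the test against 1.5-fold, and otherwise 0.773 (edgeR with a library left out). Maf had a log2 fold change of -0.37 ± 0.22 (adjusted p = 0.833) from 39 to 69 counts in a Batf2-/- library and 40 to 76 in a WT library.

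Cebpb stood at 291, 202, 232 and 121 CPM in Batf2-/- libraries 5 to 8 and 183, 179, 169.8 and 115 CPM in WT libraries 1 to 4. Libraries 8 and 4 were lowest, and the groups overlapped (log2 fold change 0.39 ± 0.25 SE, edgeR adjusted p = 0.906). Its counts are uncertain because exons of Tmem189 on the opposite strand overlap it and the strand setting of the count is not known. Cebpa averaged 125 ± 29.5 CPM in Batf2-/- and 137 ± 33.6 CPM in WT (SD, n = 4 each). Bhlhe40 and Bhlhe41, a pair of related repressors, averaged 346 ± 54.7 and 321 ± 65.7 CPM in Batf2-/-, against 303 ± 44.7 and 295 ± 54.3 CPM in WT. Both had an edgeR adjusted p of 1.00, and Bhlhe40 passed with the position block (0.0308).

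These factors also varied between the libraries of a genotype. Of the 6 factors, 5 were lowest in library 8 among the Batf2-/- libraries and lowest in library 4 among the WT libraries (Pparg, Cebpa, Cebpb, Bhlhe40 and Bhlhe41). Itgax, Plet1 and Gpnmb did the same, which made 8 of the 29 tested members (27.6%, beside 32.3% of all tested genes). Another 9 members were highest in both libraries (31%, beside 31.2%), among them Ctsk, Cd9, Atp6v0d2, Fabp4 and Fabp5. These shares were close to those over all tested genes. In 14 of the 29 (48.3%, beside 63.4% of all tested genes) both libraries differed from the rest of their own group by more than the genotypes differed. Without both libraries the log2 fold changes of the 8 were 0.73 for Plet1, 0.46 for Cebpb (edgeR adjusted p = 0.184), 0.20 for Bhlhe40, 0.13 for Bhlhe41, 0.07 for Itgax, 0.0011 for Gpnmb, -0.09 for Cebpa and -0.26 for Pparg. Those of the 9 were 0.36 for Ear2, 0.32 for Ear6, 0.17 for Cd2, 0.15 for Ctsk, 0.0054 for Net1, -0.0070 for Cd9, -0.05 for Atp6v0d2, -0.13 for Fabp5 and -0.24 for Fabp4. Among these 17 members Plet1 was the one that passed in that fit.

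**Figure D4:**
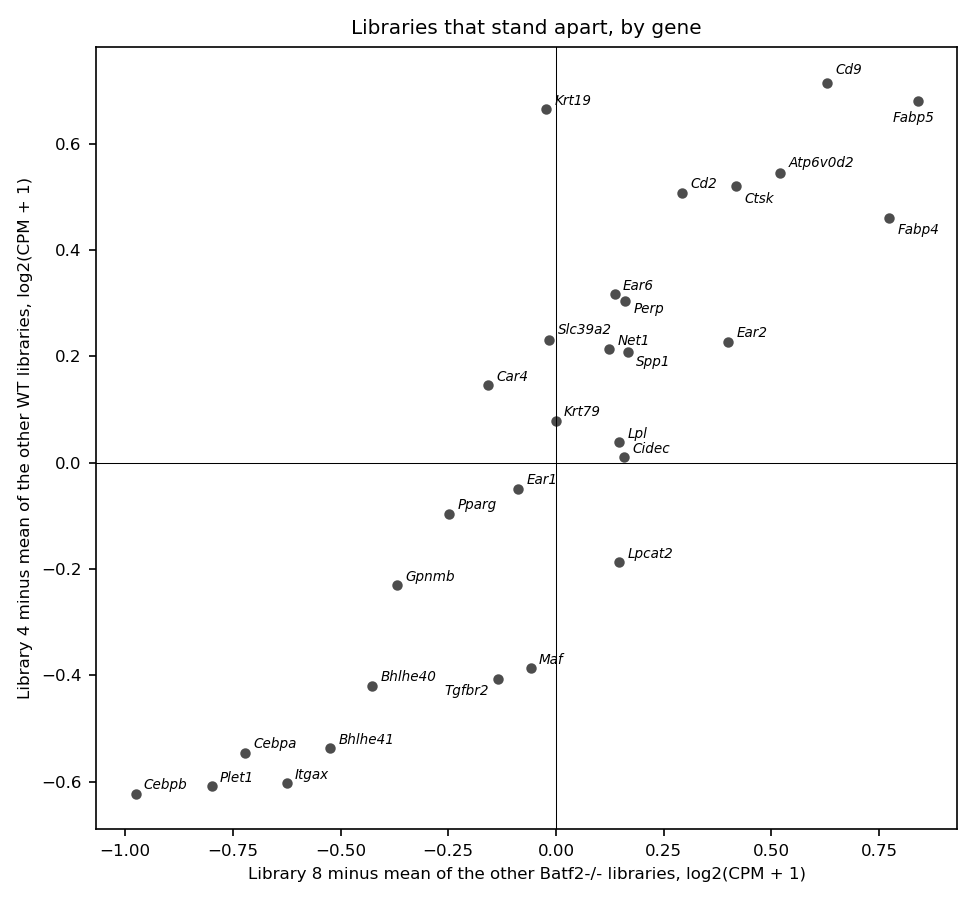
For each of the 29 tested identity genes, log2(CPM + 1) in library 8 minus the mean of the other 3 Batf2-/- libraries (x axis) and in library 4 minus the mean of the other 3 WT libraries (y axis). Cebpb, Plet1, Cebpa, Itgax and Bhlhe41 lie at the lower left and Fabp5, Fabp4, Cd9, Atp6v0d2 and Ctsk at the upper right.

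Genes shared with bone-resorbing osteoclasts were among the highest of all and none of them passed. Atp6v0d2, a subunit of the vacuolar proton pump, stood at 809, 968, 1085 and 1359 CPM in Batf2-/- libraries 5 to 8 and 903, 977, 1108 and 1448 CPM in WT libraries 1 to 4. The groups overlapped almost fully (log2 fold change -0.07 ± 0.20 SE, edgeR adjusted p = 1.00). Ctsk gave 0.11 ± 0.18 (adjusted p = 1.00). Spp1, a secreted phosphoprotein, stood at 978, 1115, 1483 and 1318 CPM in Batf2-/- libraries 5 to 8 and 1556, 1297, 1529 and 1683 CPM in WT libraries 1 to 4. Its lower values were mostly in Batf2-/-, but the groups overlapped (log2 fold change -0.31 ± 0.15 SE, edgeR adjusted p = 0.690).

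The eosinophil-associated ribonucleases (Ear genes) form a mouse family of close copies on chromosome 14. Ear2 stood at 66.3, 39.0, 49.4 and 66.8 CPM in Batf2-/- libraries 5 to 8 and 43.1, 33.5, 44.8 and 47.2 CPM in WT libraries 1 to 4, with overlap (log2 fold change 0.39 ± 0.19 SE, edgeR adjusted p = 0.653, and 0.0209 with the position block). Ear1 gave -0.07 ± 0.12 and Ear6 gave 0.25 ± 0.15 (adjusted p = 1.00 and 0.848). Ear10 had 0 counts in all 8 libraries. These counts are uncertain, because 57.4% of the 50-base windows of Ear1, 41.5% of those of Ear2 and 39.9% of those of Ear10 also occur in transcripts of other genes, among them other Ear genes and pseudogenes. Of the windows of Ear10, 27.7% occur in Ear2 and 17.8% in Ear1. Only 0.954% of the windows of Ear6 were shared.

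The keratins, structural proteins otherwise of epithelia, were both higher on average in Batf2-/-, and neither passed. Krt19 stood at 12.7, 12.9, 5.55 and 9.59 CPM in Batf2-/- libraries 5 to 8 and 3.95, 6.89, 4.11 and 8.27 CPM in WT libraries 1 to 4, with wide and overlapping spreads (log2 fold change 0.81 ± 0.32 SE, edgeR adjusted p = 0.461). Without libraries 4 and 8 its log2 fold change was 1.07 (edgeR adjusted p = 0.195). Krt79 had 19 to 32 counts in a Batf2-/- library and 13 to 18 in a WT library (log2 fold change 0.52 ± 0.23 SE, adjusted p = 0.602). The epithelial partners of Krt19 were low in both genotypes, with Krt8 at 0.908 ± 0.376 CPM in Batf2-/- and 0.798 ± 0.191 CPM in WT (SD, n = 4 each). Cdh1, the epithelial cadherin, was at 1.58 ± 1.03 CPM in Batf2-/- and 0.731 ± 0.208 CPM in WT (edgeR adjusted p = 0.420). Epcam, the highest of the epithelial list, was at 10.7 ± 2.80 CPM in Batf2-/- and 12.3 ± 1.90 CPM in WT, with overlap. The part of epithelial RNA in the Krt19 values was not tested. Tgfbr2, the receptor chain through which TGF-beta maintains these cells, averaged 159 ± 17.2 CPM in Batf2-/- and 159.8 ± 24.7 CPM in WT, and Net1, an activator of RhoA, 22.3 ± 1.72 and 22.8 ± 2.06 CPM in the same order (adjusted p = 1.00 for each).

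Other genes of the same programme, taken from 3 further lists, gave no call by edgeR without a block. An unadjusted p under 0.05 was found for 8.5% of all tested genes. Of 17 tested genes of the GM-CSF, TGF-beta and PPARG axis 0 passed and 1 had an unadjusted p under 0.05, with a median log2 fold change of -0.03. That gene, Csf2rb, the shared beta chain of the GM-CSF receptor, averaged 959 ± 216 CPM in Batf2-/- and 586 ± 132 CPM in WT (SD, n = 4 each). The groups overlapped (edgeR adjusted p = 0.247, and 7.00e-06 with the position block). Mice carry a near-identical copy, Csf2rb2, so its counts are uncertain. The next smallest adjusted p-values of that list were those of Klf4 (0.765) and Smad7 (0.771). Of 15 tested PPARG and lipid targets 0 passed and 5 had an unadjusted p under 0.05, with a median of 0.01. Abca1, the cholesterol exporter, stood at 16.7 to 33.6 CPM in Batf2-/- and 7.18 to 14.2 CPM in WT, without overlap (log2 fold change 1.29 ± 0.29 SE, adjusted p = 0.0823). Hilpda, a lipid droplet protein induced by hypoxia, averaged 30.3 ± 4.09 CPM in Batf2-/- and 18.8 ± 5.51 CPM in WT (edgeR adjusted p = 0.225). Ppargc1b, a coactivator, averaged 0.741 ± 0.254 and 1.31 ± 0.318 CPM in the same order, with overlap (edgeR adjusted p = 0.357). The groups did not overlap for Hilpda, nor for Lipa, which was lower in Batf2-/- (edgeR adjusted p = 0.437). Of 16 other alveolar macrophage markers 0 passed and 3 had an unadjusted p under 0.05, with a median of -0.03. DESeq2 called 1 gene of the first list (Csf2rb), 2 of the second (Abca1 and Lipa) and 1 of the third (Chil3), and limma-voom called 0 in each. Limma-voom with quality weights called 1 of the first (Csf2rb), 3 of the second (Abca1, Hilpda and Ppargc1b) and 0 of the third. The position block, which called 12.5% of all tested genes, called 3 of the first (Csf2rb, Csf2rb2 and Stat5a), 3 of the second (Abca1, Hilpda and Lipa) and 4 of the third (Siglecf, Cd200r1, Il18 and Ffar4). Those with a small unadjusted p in the third list were Chil3 (log2 fold change 0.92 ± 0.24 SE), Ccl6 (0.70 ± 0.29) and Ffar4, a fatty acid receptor (-0.39 ± 0.15). Chil3 stood at 4242 to 8823 CPM in Batf2-/- and 2488 to 3968 CPM in WT, without overlap (edgeR adjusted p = 0.147). Ccl6 and Ffar4 overlapped (edgeR adjusted p = 0.514 and 0.459).

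The number of calls depended on the model. DESeq2 called 3 members, and 3.13% of all tested genes. These were Car4, Lpl (adjusted p = 0.00556) and Lpcat2 (adjusted p = 0.0333). Limma-voom with quality weights also called 3, and 3.45% of all tested genes, namely Car4, Lpl (adjusted p = 0.0205) and Plet1 (adjusted p = 0.0259). A fit with the position of the column under its genotype heading as a block called 7 members, and 12.5% of all tested genes. Car4, Plet1, Ear2 and Bhlhe40 were higher and Lpl, Perp and Pparg were lower.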

How the data were processed

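For each gene and library the deposited table gives a raw count of reads, which the authors had not normalized, per the file headers. Per the labels' protocols, a stranded kit for mRNA was used. The genome build was GRCm38 (mm10), per the submitters' processing notes, while the sources used here name no aligner, counting tool, strand setting or annotation release. Columns were assigned to a genotype by the heading above them and carried no replicate number. Counts of pairs of libraries within a genotype differed by more than sampling noise (chi-square divided by its degrees of freedom was at least 32.1 in each pair), so all 8 were kept.

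Genotypes were compared with edgeR 4.0.16 (quasi-likelihood, robust, R 4.3.3). TMM scaling and edgeR's own low-count filter were applied, which left 11083 genes, and genotype was the sole model term. P-values were adjusted by Benjamini-Hochberg and called at 0.05. SE of a log2 fold change was derived from the F statistic. Lengths, coordinates and the shared 50-base windows came from GENCODE M21 on GRCm38, which matched 48349 of 48709 identifiers, and promoters from RefSeq GRCm38.p6. Alternatives used DESeq2 1.42.0, limma-voom 3.58.1, other normalizations and filters, and libraries left out. The genes named were all members and, of each other list, members past the threshold or up to 3 with the smallest adjusted p, with some further markers chosen after their values were seen. The members, lists and the alternatives on libraries 4 and 8 and on table position were chosen with earlier results of these data known.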

Additional observations from a re-analysis of the deposited data

Results flagged for a closer look

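Slc39a2 in WT library 4 stood at 591 CPM, against 498 to 510.4 CPM in the other 3 WT libraries. Maf in WT library 4 stood at 1.24 CPM, against 1.86 to 1.97 CPM in the other 3. Each lay apart from its group by a gap that was large for the group's range (0.862 and 0.851 of it, against a critical value of 0.829). Among 60 groups of 4 libraries examined, chance gives about 1 such gap in 20 groups. Library 4 also stood apart on the first principal component.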

How the results depend on the processing

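The number of genes called over the whole table was 123, and 1 of them, Car4, was a member. DESeq2 gave 347 genes and 3 members, limma-voom with quality weights 382 (3.45%) and 3, and the fit without libraries 4 and 8 206 and 2. A test against a 1.5-fold change gave 29 genes (0.262%) and 0 members by edgeR, with 1 member at an unadjusted p under 0.05, and there the Car4 log2 fold change of 0.99 had an adjusted p of 0.156. An adjusted p under 0.01 gave 47 genes and under 0.1 gave 189, each with 1 member. Leaving out single libraries gave 43 genes (without library 3) to 142 genes (without library 8), each time with 1 member. RLE, upper-quartile or no scaling factors, no filter, a stricter filter and limma-voom each gave 1 member. With the longest transcript as length, 14 members in place of 15 lay at or above the 90th percentile. No paired analysis was possible because the table's columns carry no replicate number to tie them to the labels' replicates. Pairs assumed from table position were used as a block instead, and whether they are true pairs is not known. With that block 1390 genes and 7 members were called (Car4, Plet1, Lpl, Perp, Ear2, Pparg and Bhlhe40). Deviations of same-position libraries correlated at 0.272 to 0.759 over genes. The count of 1 member belongs to the fit without pairs.

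Of 29 tested members 18 kept their sign under all 19 alternatives and 11 did not, none of which was called. Without libraries 4 and 8 the log2 fold change was 0.0054 for Net1 and 0.0011 for Gpnmb, and with quality weights it was -0.265 for Cidec and 0.0088 for Cd9. Leaving out single libraries gave -0.237 to 0.033 for Cebpa, -0.082 to 0.061 for Tgfbr2, -0.073 to 0.048 for Net1, -0.377 to 0.011 for Fabp4, -0.34 to 0.141 for Fabp5, -0.158 to 0.236 for Cidec, -0.065 to 0.192 for Itgax, -0.232 to 0.186 for Cd9, -0.0901 to 0.0442 for Gpnmb, -0.0079 to 0.278 for Ctsk and -0.218 to 0.106 for Atp6v0d2. The causes were not tested. Maf, Cidec, Krt79 and Fabp1, with under 100 counts in every library, are limited by depth.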
